A study of Drosophila melanogaster with 47 samples.

Results

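The genes described here are 10 genes of lipid synthesis and storage: *FASN1*, *FASN2*, *ACC*, *desat1*, *bmm*, *Lsd-1*, *Lsd-2*, *Lpin*, *mdy*, and *Lip4*. They were taken by symbol, and all 10 were found among the 17137 genes of the count table. The table comes from poly(A) RNA of *Drosophila melanogaster* heads, from males and females kept for 4 d in 12:12 LD at 25 °C and collected at 6 zeitgeber times (ZT, hours after lights on) every 4 h from ZT2 to ZT22. The study deleted regulatory DNA of the clock gene *timeless* (*tim*) by CRISPR and compared 4 homozygous deletion strains with a control. *tim_up126* and *tim_up122* lack stretches upstream of the *tim* start site and were made with tandem guide RNAs; each had 12 libraries, 2 at each time point. *tim_up10*, which has a small upstream deletion, and *tim_in24*, which lacks an intronic E-box, were made with a single guide RNA and had 6 libraries each, 1 at each time point. The control was *yw*, with 11 libraries (duplicates at every time but ZT18, which had 1). Each deletion is a single line on a second chromosome made homozygous, so the deletion and the rest of that strain's background cannot be told apart. Of the 10 genes, 6 lie on that chromosome (*FASN1*, *FASN2*, *mdy*, and *Lip4* on 2L, where *tim* is, and *ACC* and *Lpin* on 2R).

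Fat is built in steps. Acetyl-CoA carboxylase and fatty acid synthase make fatty acids, a desaturase adds a double bond, and acyltransferases and lipin join fatty acids to glycerol as triglyceride, which is kept in droplets coated by perilipins and taken apart again by lipases. In the fly head most stored fat lies in the fat body, a tissue that takes the parts of liver and adipose tissue and that has a clock of its own. In bulk RNA from heads, fewer cells of a type and less RNA per cell cannot be told apart.

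Library totals were between 1761896 and 10230355 counts. Levels are given as CPM, read counts scaled to library size and by TMM, edgeR's trimmed mean of M values. The library labelled *yw* ZT22 replicate 1 had 1535 CPM of *tim* and that labelled *yw* ZT22 replicate 2 had 448 CPM, against 1489 CPM at ZT18. Whether the time label of replicate 1 is right was not tested. The comparisons of strains with *yw*, the rhythms in *yw* and common to all strains, the rhythm differences, and the counts by list all use it. Values without each ZT22 library are therefore given beside some of these results, but not all (counts by list and fitted peaks without these libraries were chosen after seeing the data). Over the day *tim* was lower than in *yw* by log2 fold changes of -2.20 for *tim_up126*, -1.05 for *tim_up122*, and -0.88 for *tim_up10*, and had a log2 fold change of -0.06 in *tim_in24*, which did not pass the test. Most genes of the fat body list were present: of 12 genes, 11 were tested in the comparison of strains. The summed level of the 12 had a median of 10110 CPM in *tim_up126*, 10100 CPM in *tim_up122*, 14350 CPM in *tim_up10*, 8628 CPM in *tim_in24*, and 8190 CPM in *yw*. *apolpp* made up most of it, with medians of 6858, 7439, 9754, 6518, and 5553 CPM in the same order. *Fbp2* was at 0 in every *tim_up10* library and at most 0.486 CPM elsewhere. The strain medians were also low for *Fbp1* (0.183 to 0.493 CPM) and *Lsp1gamma* (0.0916 to 1.214 CPM).

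Expression of the 10 genes over the day differed between the strains, and most of the differences from *yw* were increases. Of the 10 genes, 8 passed the test in *tim_up126* (7 higher, 1 lower), 7 in *tim_up122* (5 higher, 2 lower), 6 in *tim_up10* (5 higher, 1 lower), and 6 in *tim_in24* (5 higher, 1 lower). Among all 11027 genes tested, 25.4%, 26.2%, 23.4%, and 25.5% were called in these comparisons, in the same order. The share called higher was 12.1% (*tim_up126*), 12.6% (*tim_up122*), 11.2% (*tim_up10*), and 12.4% (*tim_in24*), and the share called lower 13.3%, 13.6%, 12.2%, and 13.1%. The test was edgeR's quasi-likelihood test of the means of the 6 time points, with Benjamini-Hochberg adjustment over all genes and a threshold of 0.05. Its spread comes from the time points with 2 libraries in a strain, so *tim_up10* and *tim_in24* add nothing to it. Their standard errors and p-values rest on the spread within the other strains. The median log2 fold change of the 10 genes was 0.43, 0.19, 0.40, and 0.37, against medians over all genes tested of -0.01, 0.00, -0.04, and -0.03. The share of calls that were higher was 47.8%, 48%, 47.7%, and 48.5% over all genes with TMM and 32.4%, 35.9%, 18.3%, and 30.4% with library totals, which moved the median of all genes in *tim_up10* by -0.13. All 4 comparisons use the same 11 *yw* libraries, so a high or low *yw* value enters each of them.

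**Figure D1:**
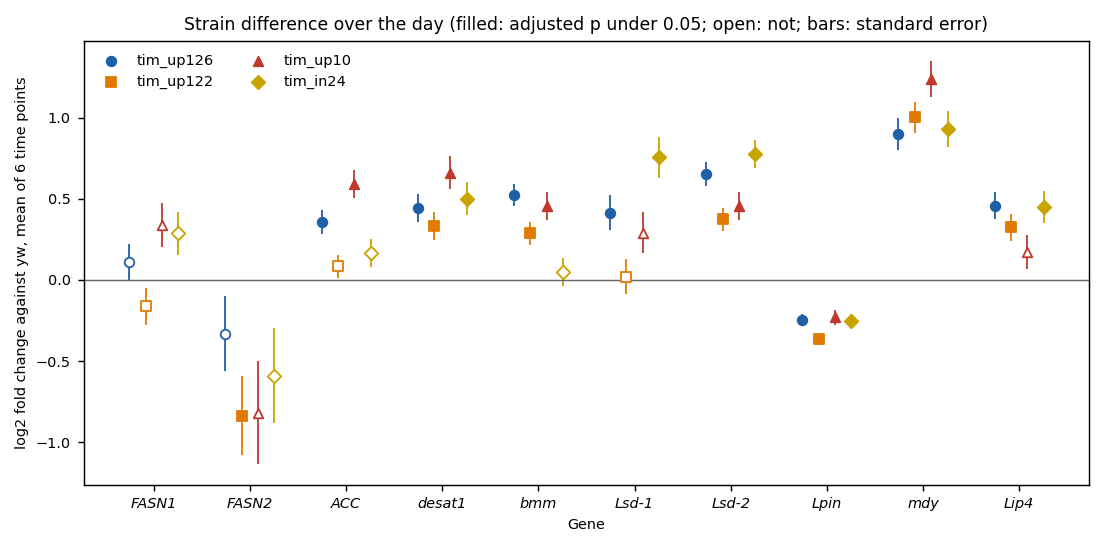
Log2 fold change of each gene against *yw*, as the mean of the 6 time points (vertical axis), for the 4 deletion strains; bars are standard errors, and filled symbols have an adjusted p under 0.05. *mdy* lies between 0.90 and 1.24 and *Lpin* between -0.36 and -0.23, all filled.

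*mdy* (*midway*) had the largest increase among the 10 genes. It encodes diacylglycerol acyltransferase, which adds the last fatty acid to make triglyceride. The lowest, median, and highest libraries had 50.9, 68.8, and 88.5 CPM in *tim_up126*, 53.4, 71.2, and 109.3 CPM in *tim_up122*, 74.2, 80.2, and 111.3 CPM in *tim_up10*, and 52.7, 74.1, and 87.0 CPM in *tim_in24*, against 20.0, 37.8, and 67.8 CPM in *yw*. Every *tim_up10* library was above every *yw* library, and in *tim_up122* and *tim_in24* every library was above all *yw* libraries but *yw* ZT2 replicate 1, at 67.8 CPM. The log2 fold change was 0.90 for *tim_up126* (standard error 0.10, adjusted p = 8.19e-08), 1.002 for *tim_up122* (0.10, adjusted p = 1.36e-08), 1.24 for *tim_up10* (0.11, adjusted p = 7.73e-09), and 0.93 for *tim_in24* (0.11, adjusted p = 7.04e-07), by edgeR's quasi-likelihood test. As linear folds these are 1.87, 2.003, 2.36, and 1.90. The strain mean was above that of *yw* at all 6 time points in each deletion strain. In the order of their means over the 6 time points, *tim_up10* had 87.6 ± 16.6 CPM, *tim_up122* 74.9 ± 16.95 CPM, *tim_in24* 71.1 ± 14.8 CPM, *tim_up126* 68.8 ± 9.72 CPM, and *yw* 38.3 ± 12.8 CPM (SD, n = 6 time points). None of the 6 pairs of deletion strains differed by the test. The lowest adjusted p among those pairs was 0.0577, for *tim_up126* against *tim_up10* at a log2 fold change of -0.34 (edgeR).

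*Lpin* encodes lipin, the phosphatidic acid phosphatase that makes the diacylglycerol used by *mdy*, and it was the only gene of the 10 lower than *yw* in all 4 deletion strains by the test. Its libraries had 347.9, 360.4, and 401 CPM (lowest, median, and highest) in *tim_up126*, 298.5, 332.6, and 373 CPM in *tim_up122*, 343.5, 366.4, and 398.2 CPM in *tim_up10*, and 327.4, 360.8, and 403 CPM in *tim_in24*, against 391.1, 439.5, and 472.1 CPM in *yw*. All 12 *tim_up122* libraries were below every *yw* library, as were 11 of 12 in *tim_up126*, 5 of 6 in *tim_up10*, and 5 of 6 in *tim_in24*. The change was small: log2 fold changes of -0.24 for *tim_up126* (standard error 0.04), -0.36 for *tim_up122* (0.04), -0.23 for *tim_up10* (0.05), and -0.25 for *tim_in24* (0.04). The adjusted p of edgeR's test were 1.38e-05, 3.36e-08, 0.00041, and 0.000116. *tim_up122* had the lowest mean of the 5 strains and was below *tim_up126* by the test (log2 fold change of *tim_up126* against *tim_up122* 0.12, adjusted p = 0.0282, edgeR). Of the bases in *Lpin* exons, 10.9% also belong to *kermit* on the same strand, so reads there may be shared.

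**Figure D2:**
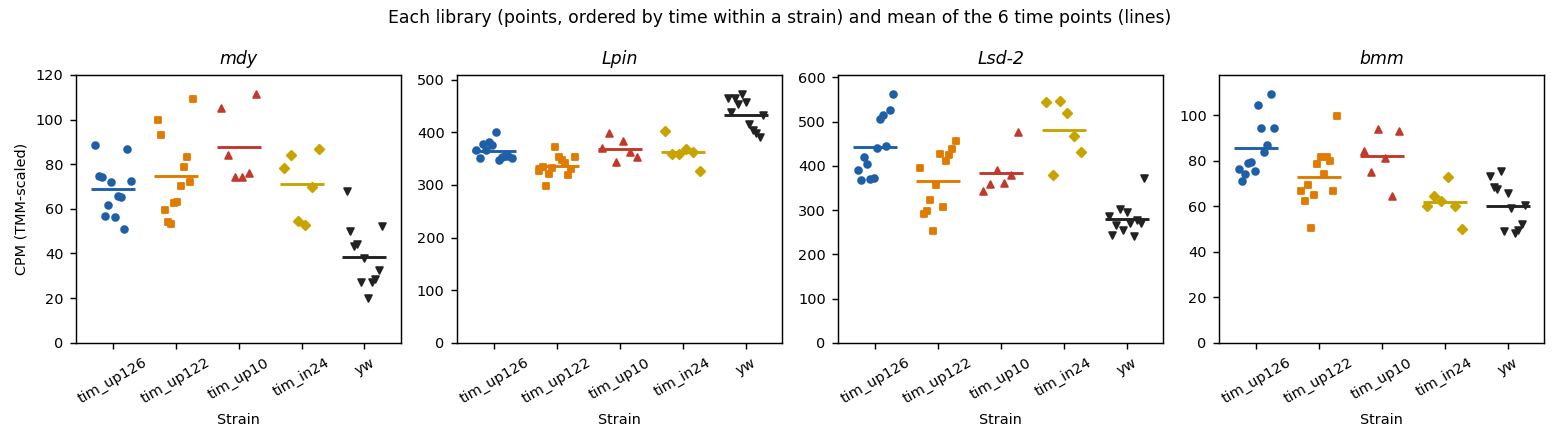
CPM of *mdy*, *Lpin*, *Lsd-2*, and *bmm* in each library (points, ordered by time within a strain) with the mean of the 6 time points (lines) for *tim_up126*, *tim_up122*, *tim_up10*, *tim_in24*, and *yw*. For *mdy* and *Lsd-2* the *yw* line is the lowest, for *Lpin* it is the highest, and for *bmm* the *tim_in24* and *yw* lines lie at 61.7 and 59.9 CPM.

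The perilipins coat lipid droplets and set the access of lipases to them. *Lsd-2*, which favours storage, was higher in all 4 deletion strains. Its lowest, median, and highest libraries had 368.9, 429.8, and 561.7 CPM in *tim_up126*, 252.4, 376.8, and 456.9 CPM in *tim_up122*, 344, 370, and 476.3 CPM in *tim_up10*, and 378.3, 494.6, and 546.1 CPM in *tim_in24*, against 241.5, 271.3, and 371.5 CPM in *yw*. Every *tim_in24* library and 10 of 12 *tim_up126* libraries were above all *yw* libraries, and at each time point the mean of every deletion strain was above that of *yw*. The log2 fold changes were 0.65 for *tim_up126* (standard error 0.07, adjusted p = 1.94e-07), 0.37 for *tim_up122* (0.07, adjusted p = 0.000357), 0.46 for *tim_up10* (0.09, adjusted p = 0.000346), and 0.77 for *tim_in24* (0.09, adjusted p = 1.98e-07) by edgeR's test. The order of the means was *tim_in24* (482 CPM), *tim_up126* (443 CPM), *tim_up10* (385 CPM), *tim_up122* (365 CPM), and *yw* (280.0 CPM). Neighbours in this order did not differ by the test except *tim_up122* and *yw*, while *tim_in24* and *tim_up126* were above *tim_up122*, and *tim_in24* was above *tim_up10* at an adjusted p = 0.0491 (edgeR).

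*Lsd-1*, the perilipin through which hormone-stimulated lipolysis acts, was higher than *yw* in *tim_in24* (log2 fold change 0.76, standard error 0.13, adjusted p = 6.16e-05) and in *tim_up126* (0.41, 0.11, adjusted p = 0.00518). In *tim_up10* its log2 fold change was 0.29 (adjusted p = 0.109) and in *tim_up122* 0.02 (adjusted p = 0.938, edgeR). Its *tim_in24* libraries had 283.9, 348.5, and 455.1 CPM (lowest, median, and highest) and its *tim_up126* libraries 216.6, 279.5, and 330.6 CPM, against 123.4, 229.2, and 464 CPM in *yw*. The *yw* range therefore contained both deletion strains. It was set by a single library, *yw* ZT6 replicate 2, at 464 CPM, whose partner had 242.8 CPM. Without that library the *tim_up10* value was 0.38 and passed (adjusted p = 0.0167), as it did at 0.42 without *tim_up10* ZT6 (adjusted p = 0.0403), whereas it was 0.17 without *tim_up10* ZT18 (adjusted p = 0.432, edgeR). Set against *tim_in24*, *tim_up122* was lower (log2 fold change -0.73 ± 0.12, standard error, with an adjusted p = 0.000168 by edgeR). An exon of *CG10214* on the other strand covers 7.35% of the *Lsd-1* exon bases, and the strand setting of the counting is not given in the sources used here.

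Both lipases were higher than *yw* in 3 of the 4 deletion strains. *bmm* (*brummer*) encodes the main triglyceride lipase of the fat body. Its lowest, median, and highest libraries had 71.2, 81.7, and 109.1 CPM in *tim_up126*, 50.5, 71.7, and 99.6 CPM in *tim_up122*, and 64.4, 82.6, and 94.0 CPM in *tim_up10*, against 48.3, 60.6, and 75.6 CPM in *yw*. Those of *tim_in24* had 50.0, 61.3, and 72.9 CPM and lay inside the *yw* range. The log2 fold change was 0.52 for *tim_up126* (standard error 0.07, adjusted p = 2.91e-06), 0.29 for *tim_up122* (0.07, adjusted p = 0.00347), and 0.45 for *tim_up10* (0.09, adjusted p = 0.000281), and it was 0.05 in *tim_in24* (0.09, adjusted p = 0.745, edgeR). Tested directly, *tim_up126* was above *tim_in24* by 0.47 (adjusted p = 0.000454) and *tim_up10* by 0.41 (adjusted p = 0.00875), while *tim_up122* was above it by 0.24, which did not pass (adjusted p = 0.0672, edgeR).

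*Lip4*, which encodes a lipase of the acid lipase family, was higher by log2 fold changes of 0.46 in *tim_up126* (standard error 0.08, adjusted p = 0.000144), 0.32 in *tim_up122* (0.08, adjusted p = 0.00485), and 0.45 in *tim_in24* (0.10, adjusted p = 0.0013). In *tim_up10* the value was 0.17 (0.11, adjusted p = 0.268, edgeR). Its 11 *yw* libraries were close together, between 24.5 and 32.0 CPM, and its 6 *tim_in24* libraries, between 33.3 and 40.2 CPM, were all above them. *tim_up126* had 30.4 to 48.3 CPM, *tim_up122* 27.4 to 51.0 CPM, and *tim_up10* 24.9 to 43.6 CPM, with 9, 6, and 3 libraries above all of *yw*. None of the 6 pairs of deletion strains differed in *Lip4* by the test.

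The genes of fatty acid synthesis were less uniform. *ACC* encodes acetyl-CoA carboxylase, the committed step that makes malonyl-CoA. It was higher in *tim_up10* (log2 fold change 0.59, standard error 0.09, adjusted p = 1.3e-05) and *tim_up126* (0.36, 0.07, adjusted p = 0.00056), and it was 0.16 in *tim_in24* and 0.08 in *tim_up122*, which did not pass (adjusted p = 0.182 and 0.444, edgeR). Its lowest, median, and highest libraries had 623.8, 781.3, and 1228 CPM in *tim_up126*, 444.1, 661.6, and 939.4 CPM in *tim_up122*, 798.6, 929, and 1134 CPM in *tim_up10*, and 501, 756, and 876.5 CPM in *tim_in24*, against 443.6, 625.9, and 890.9 CPM in *yw*. Of the libraries, 3 of 6 in *tim_up10*, 2 of 12 in *tim_up126*, 1 of 12 in *tim_up122*, and 0 of 6 in *tim_in24* were above all of *yw*, and the *tim_up10* mean was above that of *yw* at all 6 time points. *tim_up10* was also above *tim_in24* by 0.43 (adjusted p = 0.00658), *tim_up122* was below *tim_up10* by -0.50 (adjusted p = 0.000344), and *tim_up126* was above *tim_up122* by 0.27 (adjusted p = 0.0116, edgeR).

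*FASN1* encodes the fatty acid synthase of the fat body. None of the 4 comparisons with *yw* passed, with log2 fold changes of 0.11 for *tim_up126* (standard error 0.11, adjusted p = 0.525), -0.16 for *tim_up122* (0.11, adjusted p = 0.316), 0.34 for *tim_up10* (0.13, adjusted p = 0.0696), and 0.29 for *tim_in24* (0.13, adjusted p = 0.125, edgeR). The *tim_up10* value passed without *yw* ZT6 replicate 2 (adjusted p = 0.0388), *yw* ZT22 replicate 2 (0.0421), or *tim_up10* ZT2 (0.0492), and that of *tim_in24* without *tim_in24* ZT22 (0.0469, edgeR). The libraries had 1404 to 4234 CPM in *tim_up126*, 937 to 3478 CPM in *tim_up122*, 2137 to 3132 CPM in *tim_up10*, and 1273 to 3613 CPM in *tim_in24*, against 1293 to 2992 CPM in *yw*. The test of any difference between the 5 strains did pass (adjusted p = 0.0122, edgeR); all 10 genes passed it, against 41.4% of all genes tested. *FASN2* passed at an adjusted p = 0.0436 and lost the call with DESeq2 (0.0623), with a term for the replicate number (0.0545), and in 29 of 47 fits without 1 library (highest 0.25, edgeR), the highest being that without ZT22 of *tim_in24*. Among the pairs, *tim_up122* was below *tim_up10* by -0.50 (adjusted p = 0.0172) and below *tim_in24* by -0.45 (adjusted p = 0.0223, edgeR). *FASN1* lies on chromosome 2L from 3056598 to 3068177 on the plus strand (dm6), 425809 bp from *tim*, next to *FASN2* (3043947 to 3056143).

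*FASN2*, a synthase known from the oenocytes, which make cuticular hydrocarbons, was low in heads, with 5 to 64 counts per library. It had 2.10 to 8.37 CPM in *tim_up126*, 1.36 to 5.35 CPM in *tim_up122*, 1.301 to 4.23 CPM in *tim_up10*, and 2.17 to 4.56 CPM in *tim_in24*, against 2.89 to 7.10 CPM in *yw*. It was lower in *tim_up122* (log2 fold change -0.84, standard error 0.24, adjusted p = 0.0115). In *tim_up10*, *tim_in24*, and *tim_up126* the values were -0.82, -0.59, and -0.33, with adjusted p of 0.0674, 0.15, and 0.33 (edgeR). The *tim_up10* value passed without *yw* ZT10 replicate 2 (adjusted p = 0.0403) or *yw* ZT6 replicate 1 (0.0445, edgeR). Of the oenocyte list, *Cyp4g1*, whose product completes hydrocarbon synthesis, was also lower in *tim_up10* (-3.16), *tim_in24* (-3.04), and *tim_up122* (-1.85), with -1.20 in *tim_up126*, which did not pass. *Cyp4g1* was low and varied widely. Its lowest, median, and highest libraries had 0, 7.09, and 20.4 CPM in *tim_up10* and 0, 4.64, and 11.1 CPM in *tim_in24*. In *tim_up122* they had 0.385, 7.65, and 44.9 CPM and in *tim_up126* 0, 8.10, and 39.0 CPM. In *yw* they had 2.48, 14.8, and 48.7 CPM, so each strain overlapped *yw*. In all strains together *Cyp4g1* was the gene whose profile was most like that of *FASN2* (Pearson r = 0.752 over the 30 combinations of strain and time). The part of oenocytes in the heads in the *FASN2* values was not tested.

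*desat1* (listed as *Desat1*) encodes the delta-9 desaturase that makes monounsaturated fatty acids, and it was higher in all 4 deletion strains. The lowest, median, and highest libraries had 2308, 2658, and 3832 CPM in *tim_up126*, 1702, 2626, and 3886 CPM in *tim_up122*, 2712, 3233, and 3646 CPM in *tim_up10*, and 2268, 2969, and 3287 CPM in *tim_in24*, against 1616, 2045, and 2554 CPM in *yw*. All *tim_up10* libraries and 5 of 6 *tim_in24* libraries were above every *yw* library, whereas *tim_up122* was below *yw* at 2 of the 6 time points. The log2 fold changes were 0.44 for *tim_up126* (standard error 0.09, adjusted p = 0.000305), 0.33 for *tim_up122* (0.09, adjusted p = 0.00485), 0.66 for *tim_up10* (0.10, adjusted p = 2.5e-05), and 0.50 for *tim_in24* (0.10, adjusted p = 0.000552) by edgeR's test. *tim_up122* was below *tim_up10* by -0.33 (adjusted p = 0.041, edgeR), and no other pair of deletion strains differed. The *tim_up122* call was lost without the library *yw* ZT18, the only *yw* library at that time, when ZT18 was left out of the comparison (adjusted p = 0.0792, edgeR).

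The deletion strains were also set against each other. *tim_up126* was above *tim_up122* in 5 of the 10 genes (*ACC*, *bmm*, *Lsd-1*, *Lsd-2*, and *Lpin*) and below it in none, where 11.4% of all genes were called (5.85% higher, 5.57% lower). *tim_up122* was below *tim_up10* in 3 (*FASN1*, *ACC*, and *desat1*; 7.67% of all genes called, 3.35% higher and 4.33% lower) and below *tim_in24* in 3 (*FASN1*, *Lsd-1*, and *Lsd-2*; 12.6%, with 6.07% higher and 6.52% lower). *tim_up10* differed from *tim_in24* in 3, being higher in *ACC* and *bmm* and lower in *Lsd-2* (7.35%, with 3.85% higher and 3.5% lower). *tim_up126* differed from *tim_in24* in *bmm* alone (10.4%, with 5.11% higher and 5.27% lower) and from *tim_up10* in 0 genes (6.82%, with 3.17% higher and 3.65% lower), where 5 of the 10 had an unadjusted p under 0.05 by edgeR's test, as did 18.7% of all genes. These pairs share libraries with each other as well.

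A 24 h rhythm passed the test in 2 of the 10 genes in *tim_up122*, *desat1* and *mdy* (7.74% of all genes tested there), and in 4 in *yw*, *mdy*, *ACC*, *Lsd-1*, and *bmm* (16%). In *tim_up126* (6.36% of all genes), *tim_up10* (2.6%), and *tim_in24* (1.25%), 0 of the 10 passed with edgeR. There 4, 4, and 2 had an unadjusted p under 0.05, against 17.1%, 13%, and 12.7% of all genes, and DESeq2 called 2, 0, and 0, against 7.45%, 1.9%, and 1.71% of all genes. The test was edgeR's quasi-likelihood F test of a 24 h cosine term plus its sine within each strain, and the strains with 6 libraries leave it few degrees of freedom. Leaving out 1 library gave calls there in some fits. In *tim_up10* without ZT10 they were *ACC* and *FASN1* (adjusted p = 0.0395 and 0.00483, edgeR), whose other fits reached 0.994 and 0.722. In *tim_in24* without ZT2 they were *FASN1* and *mdy* (0.00506 and 0.0188, edgeR), whose other fits reached 0.912 and 0.672. In *tim_up126* they were *Lsd-2* without ZT18 replicate 2 (0.0442) and *desat1* without ZT10 replicate 1 or ZT18 replicate 1 (0.047 and 0.0487, edgeR). Other fits of these reached 0.163 and 0.147. The share of all genes called in each such fit is not given here, so these calls are not a result about the 10 genes. A rhythm called in 1 strain and not in another is not shown to differ between them: of the 10 genes, 0 passed edgeR's test of a difference among the 5 strains (1.2% of all genes), 5 had an unadjusted p under 0.05 (11.5% of all genes), and DESeq2 called 1, *bmm* (3.09%). Against *yw*, only *bmm* passed edgeR's test, both in *tim_up126* (1.62% of all genes) and in *tim_up122* (2.07%). DESeq2 called more of the 10 in *tim_up122*, and a fit with no filter did so in both strains, as given in the last section. By edgeR's test, 5 of the 10 had an unadjusted p under 0.05 in *tim_up126* (12.8% of all genes) and 7 in *tim_up122* (13.2%). A gene that did not pass is therefore not shown to keep its rhythm.

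**Figure D3:**
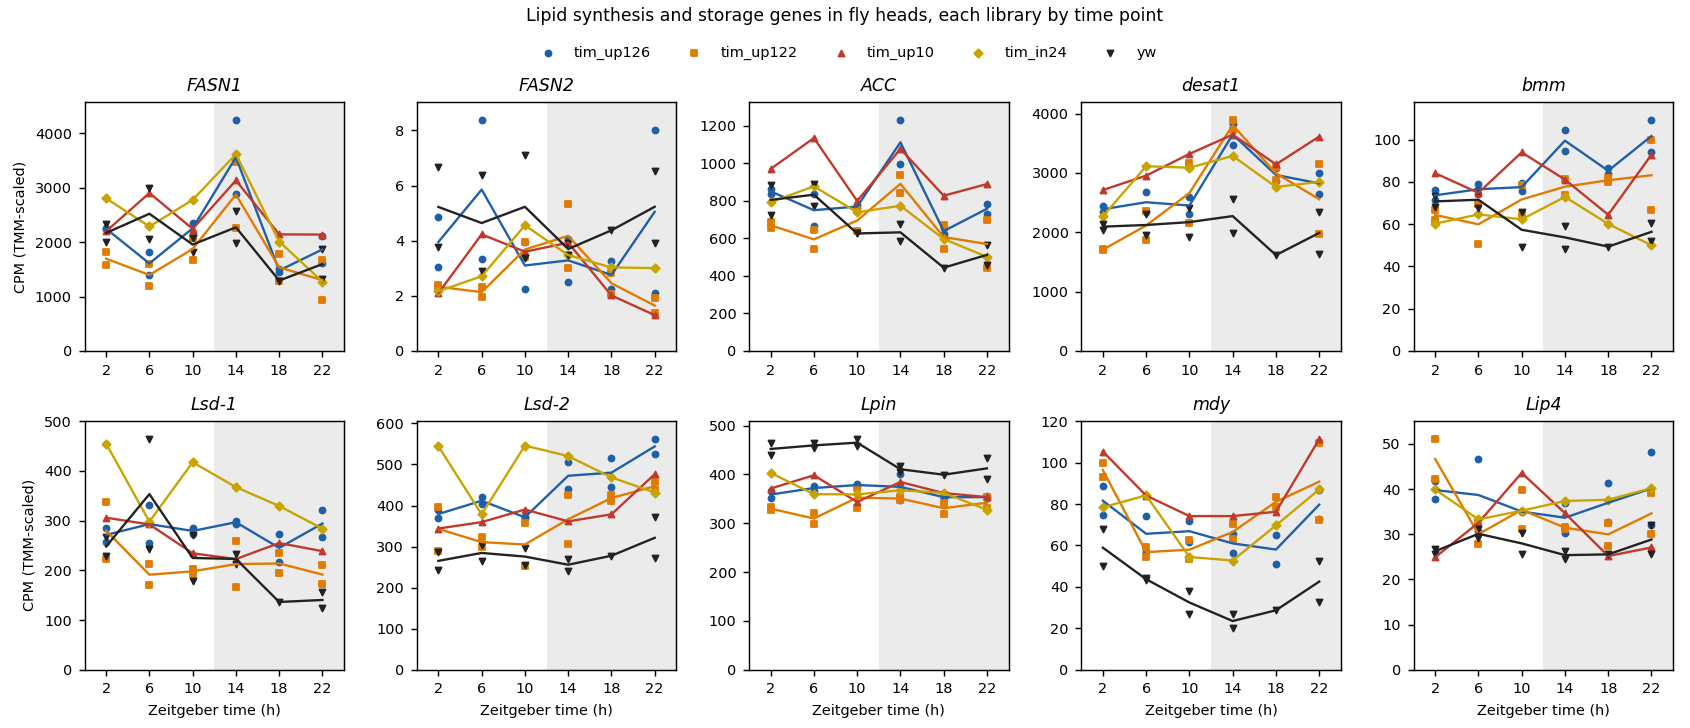
CPM of the 10 genes (vertical axes) in each library (points) against zeitgeber time in hours, with lines through the mean of each time point for the 5 strains; the dark phase is shaded. *mdy* is lowest at ZT14 in *yw*, and *FASN1* and *desat1* are highest at ZT14 in all 4 deletion strains.

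*mdy* had the lowest adjusted p for a rhythm in *yw* and across strains. In *yw* it had 67.8 and 50.0 CPM at ZT2 and 20.0 and 27.1 CPM at ZT14, a ratio of the time point means of 2.50. The fitted peak lay at 2.46 h with a log2 amplitude of 0.61 (standard error 0.11, adjusted p = 0.00381 for the rhythm, edgeR). In *tim_up122* the peak lay at 22.1 h with an amplitude of 0.38 (standard error 0.09, adjusted p = 0.0125), a call that was lost without *tim_up122* ZT22 replicate 2 (adjusted p = 0.0564, edgeR). The other deletion strains peaked between 0.40 and 1.61 h with amplitudes from 0.21 to 0.37, without passing. Its lowest level in the deletion strains was at ZT6 in *tim_up122*, at ZT14 in *tim_up10* and *tim_in24*, and at ZT18 in *tim_up126*. A rhythm common to all 5 strains, fitted over all 47 libraries, passed with an adjusted p = 1.13e-06 (edgeR), a peak at 0.74 h, and an amplitude of 0.34. The difference in rhythm from *yw* did not pass in *tim_up122* (adjusted p = 0.0629) or *tim_up126* (adjusted p = 0.273, edgeR), but that of *tim_up122* passed without *yw* ZT22 replicate 2 (adjusted p = 0.0386), *tim_up122* ZT22 replicate 1 (0.0326), or *tim_up122* ZT2 replicate 1 (0.0488, edgeR). Without *yw* ZT22 replicate 1 the *yw* peak lay at 1.87 h and without replicate 2 at 2.94 h, and the *yw* rhythm passed both times (adjusted p = 0.00156 and 0.00404, edgeR).

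*desat1*, *Lsd-2*, and *FASN1* were the other genes with a rhythm common to all strains, so that 4 of the 10 passed, against 31.3% of all genes tested. *desat1* peaked at 14.7 h (amplitude 0.22, adjusted p = 0.000604), *Lsd-2* at 19.7 h (0.16, adjusted p = 0.00392), and *FASN1* at 10.9 h (0.27, adjusted p = 0.0103, edgeR). *desat1* was highest at ZT14 in all 5 strains, and *tim_up122* had the widest range, with 3886 and 3725 CPM at ZT14 and 1702 and 1711 CPM at ZT2. *FASN1* was highest at ZT14 in the 4 deletion strains, with 2880 and 4234 CPM in *tim_up126*, 3478 and 2267 CPM in *tim_up122*, 3132 CPM in *tim_up10*, and 3613 CPM in *tim_in24*. In *yw* it was highest at ZT6, with 2047 and 2992 CPM, and had 2567 and 1974 CPM at ZT14.

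**Figure D4:**
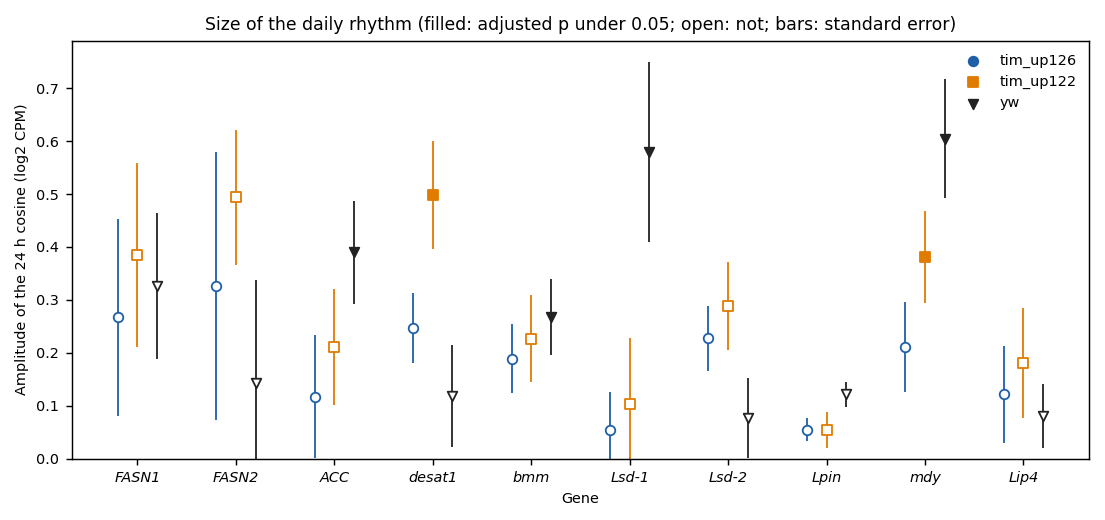
Log2 amplitude of the 24 h cosine for each gene in *tim_up126*, *tim_up122*, and *yw* with standard errors; filled symbols have an adjusted p under 0.05 in the test of a rhythm within the strain. *Lsd-1* and *mdy* have the largest *yw* amplitudes, 0.58 and 0.61, and *desat1* the largest *tim_up122* amplitude, 0.50.

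*ACC*, *bmm*, and *Lsd-1* peaked in the light phase in *yw*, and each call was lost without the single *yw* ZT18 library (adjusted p = 0.0854, 0.0737, and 0.0759) or without *yw* ZT6 replicate 2 (0.0645, 0.0817, and 0.0848, edgeR). The *bmm* call was also lost without *yw* ZT2 replicate 1 (0.0615) or *yw* ZT14 replicate 2 (0.0743), and that of *Lsd-1* without *yw* ZT22 replicate 1 (0.0604, edgeR). The fitted peaks were 5.87 h for *ACC* (amplitude 0.39, adjusted p = 0.0169), 4.35 h for *bmm* (0.27, adjusted p = 0.0246), and 6.98 h for *Lsd-1* (0.58, adjusted p = 0.0215, edgeR). Leaving out *yw* ZT22 replicate 1, they were 5.25 h, 3.77 h, and 6.59 h, and without replicate 2 they were 5.92 h, 4.57 h, and 6.99 h. *ACC* in *yw* had 773.7 and 890.9 CPM at ZT6 and 443.6 CPM in the single ZT18 library. In *tim_up126*, *ACC* was instead highest at ZT14, with 994.3 and 1228 CPM, and its 24 h cosine did not pass (adjusted p = 0.777, edgeR). A test of any difference among the 6 time points did pass there for *ACC* (adjusted p = 0.0479) and *FASN1* (adjusted p = 0.0108, edgeR), which a cosine does not describe.

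*bmm* was the gene whose difference in rhythm from *yw* passed the test. At ZT2 it had 76.1 and 71.2 CPM in *tim_up126*, against 73.2 and 68.4 CPM in *yw*. At ZT14 it had 104.5 and 94.5 CPM in *tim_up126*, against 59.2 and 48.3 CPM in *yw*, and at ZT18 83.9 and 86.7 CPM in *tim_up126*, against 49.4 CPM in *yw*. At ZT10, in the light phase, it had 79.5 and 75.6 CPM in *tim_up126*, against 49.1 and 65.6 CPM in *yw*. The libraries of both strains overlapped at ZT2 and at ZT6 (74.0 and 79.0 CPM in *tim_up126*, against 67.5 and 75.6 CPM in *yw*) and did not overlap at ZT10, ZT14, ZT18, or ZT22. The fitted peaks were 17.7 h in *tim_up126* (amplitude 0.19), 17.6 h in *tim_up122* (0.23), and 4.35 h in *yw* (0.27). The difference in rhythm had an adjusted p = 0.027 for *tim_up126* and 0.0298 for *tim_up122* (edgeR), which share the *yw* libraries, and neither deletion strain had a rhythm of its own by the test (adjusted p = 0.166 and 0.16, edgeR). Both calls were lost when *yw* ZT6 replicate 2, *yw* ZT14 replicate 2, or *yw* ZT18 was left out (highest adjusted p 0.074 for *tim_up126* and 0.0907 for *tim_up122*, edgeR), and that of *tim_up122* also without *yw* ZT2 replicate 1, *yw* ZT6 replicate 1, *tim_up122* ZT2 replicate 2, or *tim_up122* ZT6 replicate 2. Without *yw* ZT22 replicate 1 the adjusted p were 0.0356 for *tim_up126* and 0.0495 for *tim_up122*, and without replicate 2 they were 0.0248 and 0.0314 (edgeR).

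The profiles of the 10 genes over the 30 combinations of strain and time were compared by the Pearson correlation of mean log2 CPM, given as a description with no test. Differences in level between strains enter it as well as the time of day. Within the 10, *FASN1* and *ACC* were the most alike (r = 0.804), and *ACC* was also the gene most like *FASN1* among 10495 genes, followed by *Zw*, the glucose-6-phosphate dehydrogenase that supplies NADPH (r = 0.753). The gene most like *ACC* was *AcCoAS* (r = 0.913), which makes acetyl-CoA from acetate. *Lsd-2* was most like *CG5966*, a predicted triglyceride lipase (r = 0.908), *desat1* like *CG5819* (0.878) and the adiponectin receptor gene *AdipoR* (0.87), and *mdy* like *Fmo-2* (0.901), *rost* (0.892), and *fbp* (0.885), the gene of fructose-1,6-bisphosphatase. *Lpin* was most like *AOX3* (0.875) and *yellow-c* (0.863), *Lsd-1* like *CG5321* (0.832), *bmm* like *stau* (0.782), and *Lip4* like *CG8353* (0.738). *Lpin* and *mdy*, which act in succession, had r = -0.565.

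Other genes of lipid metabolism were counted by list, the 10 genes included where they belong. Over all genes tested, 12.1% were higher and 13.3% lower in *tim_up126*, 12.6% and 13.6% in *tim_up122*, 11.2% and 12.2% in *tim_up10*, and 12.4% and 13.1% in *tim_in24*. The counts here and in the lists and markers below stand beside these shares, and a count near them is not a result about its list. Without either *yw* ZT22 library the counts of lipid droplet proteins and of NADPH supply were as given below in all 4 strains, and those of the other lipid lists moved as stated. The list of fatty acid oxidation, the mitochondrial and peroxisomal breakdown of fatty acids, had 11 of 13 genes higher in *tim_up126*, *tim_up10*, and *tim_in24* with none lower, and 6 higher and 1 lower in *tim_up122*. With *yw* ZT22 replicate 1 left out it had 10 higher in *tim_up126*, 11 in *tim_up10* and *tim_in24*, and 5 higher and 1 lower in *tim_up122*. With replicate 2 left out it had 11 in each of the first 3 strains, and 6 higher and 0 lower in *tim_up122*. Its median log2 fold changes were 0.32 for *tim_up126*, 0.18 for *tim_up122*, 0.51 for *tim_up10*, and 0.47 for *tim_in24*. *Mcad*, a medium-chain acyl-CoA dehydrogenase, was higher by 0.76, 0.45, 0.70, and 1.09 in these strains, and *CPT2*, which passes fatty acids into the mitochondrial matrix, by 0.52, 0.33, 0.53, and 0.47. *whd*, the outer carnitine palmitoyltransferase, was higher by 0.22 in *tim_up126*, 0.30 in *tim_up10*, and 0.23 in *tim_in24*. The lower gene in *tim_up122* was *CG5009* (-0.15), a predicted peroxisomal oxidase.

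Of the 5 lipid droplet proteins, 4 were higher in *tim_up126*, 2 in both *tim_up122* and *tim_up10*, and 5 in *tim_in24*, with none lower. *Jabba*, a droplet protein that binds histones, was higher in all 4, by 0.53, 0.30, 0.43, and 0.70. Among 9 lipase genes tested, 6 were higher and 1 lower in *tim_up126*, 5 and 1 in *tim_up122*, 4 and 2 in *tim_up10*, and 3 and 1 in *tim_in24*. Leaving out *yw* ZT22 replicate 1 made the lower counts 0 in *tim_up122* and 1 in *tim_up10*. *CG5966* had the largest difference: its libraries had 68.3 to 330.3 CPM in *tim_up126*, 17.7 to 116.3 CPM in *tim_up122*, 34.4 to 170.7 CPM in *tim_up10*, and 82.8 to 140.9 CPM in *tim_in24*, against 14.6 to 46.7 CPM in *yw*, with log2 fold changes of 2.45, 0.96, 1.28, and 2.22. *dob* (*doppelganger von brummer*), a relative of *bmm*, was higher in all 4 (0.83, 0.46, 0.82, and 0.71), *Hsl*, the hormone-sensitive lipase, was called in none (values from -0.05 to 0.01), and *Lip3* was lower in all 4 (-1.04, -0.64, -0.86, and -2.05).

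**Figure D5:**
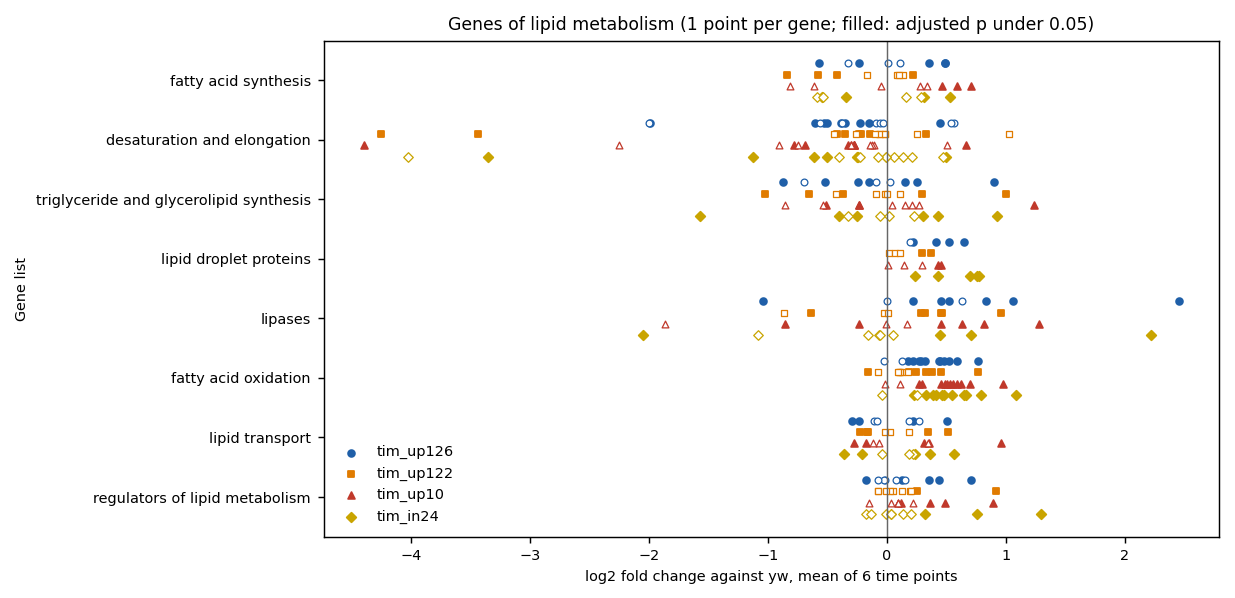
Log2 fold change against *yw* over the day (horizontal axis) of every tested gene in 8 lists of lipid metabolism, 1 point per gene and deletion strain; filled symbols have an adjusted p under 0.05. Fatty acid oxidation and lipid droplet proteins lie mostly to the right of 0, and desaturation and elongation mostly to the left.

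Triglyceride synthesis was mixed outside *mdy*. Of 10 genes tested in that list, 3 were higher and 4 lower in *tim_up126*, 2 and 3 in *tim_up122*, 1 and 3 in *tim_up10*, and 3 and 3 in *tim_in24*. The *tim_up126* counts were 1 and 4 without *yw* ZT22 replicate 1. With replicate 2 left out, the counts were 2 and 4 in *tim_up126*, 1 and 3 in *tim_up122*, 2 and 3 in *tim_up10*, and 4 and 3 in *tim_in24*. *Dgat2*, another acyltransferase for the last step, was lower in *tim_up126* (-0.87), *tim_up122* (-1.02), and *tim_in24* (-1.57), with -0.86 in *tim_up10*, which did not pass; its libraries ran from 0.179 to 3.27 CPM in the deletion strains and from 1.299 to 9.47 CPM in *yw*. *Agpat2*, an acyltransferase earlier in the path, was lower in all 4 (-0.52, -0.65, -0.51, and -0.40). Desaturation and elongation had 1 gene higher in each deletion strain, *desat1* itself, and 8, 7, 8, and 6 of 17 lower, among them the elongase *ELOVL* (-0.39, -0.23, -0.32, and -0.25). The lower counts were 7, 7, 7, and 6 without *yw* ZT22 replicate 1 and 9, 8, 8, and 4 without replicate 2. The list of fatty acid synthesis had 3 higher and 2 lower of 8 for *tim_up126*, 1 and 3 for *tim_up122*, 3 and 0 for *tim_up10*, and 2 and 2 for *tim_in24*. In *tim_up10*, 5 were higher without *yw* ZT22 replicate 2. *Acsl*, an acyl-CoA synthetase that activates fatty acids, was higher in all 4 (0.49, 0.22, 0.46, and 0.53), and *ATPCL*, the citrate lyase that makes cytosolic acetyl-CoA, was lower in *tim_up126* (-0.23), *tim_up122* (-0.42), and *tim_in24* (-0.35). The NADPH list had 0 of 5 called in *tim_up126* and *tim_in24*, 2 lower in *tim_up122*, and 1 higher in *tim_up10*.

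Among 10 regulators of lipid metabolism, 4 were higher and 1 lower in *tim_up126*, 2 and 0 in *tim_up122*, 4 and 0 in *tim_up10*, and 3 and 0 in *tim_in24*. In *tim_up10*, 3 were higher without *yw* ZT22 replicate 1. *sug* (*sugarbabe*), a zinc finger factor of the sugar response, was higher in all 4 (0.71, 0.91, 0.89, and 1.296), as was *AdipoR* (0.35, 0.25, 0.49, and 0.32). *SREBP*, the sterol-regulated factor that drives fatty acid synthesis genes, was 0.13 in *tim_up126*, which passed, and between -0.01 and 0.10 in the other strains. Lipid transport had 2 higher and 2 lower of 8 for *tim_up126*, 2 and 3 for *tim_up122*, 3 and 2 for *tim_up10*, and 3 and 2 for *tim_in24*. The transport counts were 1 and 2 in both *tim_up126* and *tim_in24* without *yw* ZT22 replicate 1. With replicate 2 left out they were 3 and 3 in *tim_up126*, 2 and 2 in *tim_up122*, 4 and 2 in *tim_up10*, and 2 and 2 in *tim_in24*. *apolpp*, the lipoprotein precursor secreted by the fat body, was higher in all 4 (0.51, 0.51, 0.96, and 0.36), and the lipophorin receptor gene *LpR2* lower in all 4 (-0.24, -0.23, -0.28, and -0.36).

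Some markers of cell types also differed from *yw*, in both directions. Of the 11 fat body markers tested, 3 were higher and 3 lower in *tim_up126*, 2 and 3 in *tim_up122*, 5 and 0 in *tim_up10*, and 3 and 3 in *tim_in24*. The summed level of the 12 genes of the list, most of it *apolpp*, was 7751 to 15420 CPM in *tim_up126*, 6167 to 13320 CPM in *tim_up122*, 13180 to 16410 CPM in *tim_up10*, and 6711 to 14850 CPM in *tim_in24*, against 6838 to 13440 CPM in *yw*. The counts were 2 and 2 in *tim_in24* without *yw* ZT22 replicate 1, and without replicate 2 they were 1 and 2 in *tim_up122*, 6 and 0 in *tim_up10*, and 2 and 3 in *tim_in24*. *apolpp*, *Mtp*, *Apoltp*, *NLaz*, and *AkhR* of this list also stand in the lists of transport or regulators. *Lsp2* ran from 24.7 CPM in a *tim_in24* library to 2241 CPM in a *tim_up122* library, and *Tsf1* was lower in *tim_up126* (-0.66), *tim_up122* (-0.92), and *tim_in24* (-0.82). Of the 3 yolk protein genes, made in females, 1 was higher in *tim_up126* (*Yp1*), 2 in *tim_up122* (*Yp1* and *Yp2*), 3 in *tim_up10*, and 1 in *tim_in24* (*Yp1*), with none lower. *Yp1* had 0.50, 0.50, 0.75, and 0.55, *Yp2* 0.22, 0.38, 0.53, and 0.34, and *Yp3* 0.04, 0.34, 0.61, and 0.09 in the 4 strains. Their summed level was 39110 to 72910 CPM in *tim_up126*, 44360 to 74710 CPM in *tim_up122*, 53100 to 97450 CPM in *tim_up10*, and 44900 to 67050 CPM in *tim_in24*, against 25290 to 63360 CPM in *yw*. Of the 3 male markers, *lncRNA:roX2* was lower in *tim_up126* (-0.49), *tim_up122* (-0.45), and *tim_in24* (-0.81), with -0.38 in *tim_up10*, which did not pass, and *lncRNA:roX1* (-0.42 to 0.00) and *msl-2* (-0.12 to 0.07) were called in no strain; the share of each sex in a library is not given in the sources used here. Of 6 photoreceptor markers, 2 were higher in *tim_up126* and in *tim_up122* (*Arr2* and *trp*) and 5 in *tim_up10* and in *tim_in24*, with none lower. *trp*, the light-gated channel, had 0.49, 0.40, 0.33, and 0.30, and the arrestin *Arr2* 0.32, 0.26, 0.39, and 0.56. The summed level of these 6 was 31890 to 61800 CPM in *tim_up126*, 44400 to 62570 CPM in *tim_up122*, 52780 to 58540 CPM in *tim_up10*, and 55200 to 65420 CPM in *tim_in24*, against 38610 to 56320 CPM in *yw*. Of 5 glia markers, *repo*, the glial homeobox factor, was lower in all 4 strains (-0.16, -0.30, -0.29, and -0.22), *nrv2* was lower in *tim_up126* (-0.16) and *tim_up122* (-0.24), and in *tim_up122* *Gs2* was lower (-0.34) and *moody* higher (0.13). Of 4 muscle markers, *Act88F* was lower in all 4 strains (-1.52, -1.21, -1.59, and -1.76), *Mhc* was lower in *tim_up122* (-0.19) and *tim_in24* (-0.37), and *up* and *wupA* were higher in *tim_up122* (0.17 and 0.15) and *tim_in24* (0.61 and 0.48). *Act88F* was low, with medians of 2.12, 2.10, 2.09, and 1.69 CPM in the 4 strains, against 3.25 CPM in *yw*. Its libraries ran from 0.763 to 7.75 CPM in the deletion strains and from 1.51 to 28.7 CPM in *yw*. Of 4 neuron markers, *nSyb* was higher in *tim_up122* (0.18) and no other call was made. Of the 3 oenocyte markers tested, *tim_up122* had 3 lower, *tim_up10* 2, and *tim_up126* and *tim_in24* 1 each. Leaving out *yw* ZT22 replicate 1 left 3 photoreceptor markers higher in *tim_in24*, and in the sex, glia, muscle, neuron, and oenocyte lists the counts without either *yw* ZT22 library differed from these by at most 1 gene. The part of sex and of the content of fat body, photoreceptors, glia, muscle, and oenocytes in the differences of the 10 genes was not tested.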

How the data were processed

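Per the labels, the authors sequenced poly(A) RNA from heads, aligned the reads to dm6, and deposited counts of reads per gene. The paper's methods and the submitters' processing notes name different tools: Tophat and ESAT in the methods, and STAR, SAMtools, and featureCounts in the notes. Versions, annotation, and the strand setting are not given in the sources used here. The deposited normalized table equals the counts divided by 1 factor per library and was not used.

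Samples were grouped by strain and time from the labels. The 47 libraries were fitted in edgeR 4.0.16 (R 4.3.3) with 30 groups, TMM factors, filterByExpr (11027 genes kept), and quasi-likelihood tests, with Benjamini-Hochberg adjustment over all genes tested and a threshold of 0.05. Contrasts are means over 6 time points. Rhythms were tested with a 24 h cosine and sine. Peak times and amplitudes were fitted by least squares to log2 CPM (prior count 2). The code was tested on simulated data. DESeq2 1.42.0, other scalings, filters, and models, and leaving out each library were tried. The 17 pairs of replicates differed by more than sampling noise (at least 4.89 chi-square per degree of freedom). Nothing says whether replicates are separate fly populations, so p-values measure the spread between these samples. In the fit of 47 libraries that spread comes from the 17 pairs alone, since *tim_up10* and *tim_in24* have 1 library per time point. The members and gene lists were chosen with earlier results of these data known. Genes named in the text are the 10 members, the 3 most alike each member, and list genes chosen after their values were seen. Gene positions come from the Ensembl annotation of dm6.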

Additional observations from a re-analysis of the deposited data

Results flagged for a closer look

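The 24 h rhythm of *bmm* differed from *yw* by edgeR's interaction test in *tim_up126* (adjusted p = 0.027) and in *tim_up122* (adjusted p = 0.0298). The fitted peak lay at 17.7 h in *tim_up126* and at 17.6 h in *tim_up122*, against 4.35 h in *yw*. Neither deletion strain had a rhythm of its own by edgeR's test (adjusted p = 0.166 for *tim_up126* and 0.16 for *tim_up122*). A shift of the peak is therefore not shown. When each library was left out in turn, the *tim_up126* difference lost its call in 3 of 23 fits. The *tim_up122* difference lost its call in 7 of 23 fits. Both comparisons rest on the same 11 *yw* libraries.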

How the results depend on the processing

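The number of members called in *tim_up126* against *yw* was 8 under each of the alternatives run. Scaling by library totals turned the sign of 2 values that had not passed, *bmm* in *tim_in24* (-0.0198) and *Lsd-1* in *tim_up122* (-0.0179), and an additive model did so for *Lsd-1* in *tim_up122* (-0.0513). The number of members with a rhythm in *tim_up126*, 0 as reported, was 4 with no filter, 2 with DESeq2, 2 with a test of any difference between the time points, and 2 with the replicate block (*desat1*, adjusted p = 0.0286, and *Lsd-2*, adjusted p = 0.0375). In *yw* it was 1 with the test of any difference, in *tim_up122* 6 with no filter, and in *tim_up10* 1 with no filter and 1 with median-of-ratios size factors. The common rhythm had 7 members with library totals. The rhythm difference among 5 strains had 4 with no filter and 1 with DESeq2, that of *tim_up126* against *yw* 4 with no filter, and that of *tim_up122* against *yw* 5 with no filter and 4 with DESeq2. The causes were not tested. Several of these settings also moved the counts over all genes, as given at the end of this paragraph. A changed count of members is therefore not by itself a result about them. For the remaining settings and for the fits without 1 library, counts over all genes are not given here. Member counts there cannot be set against them. Without 1 library at a time, the members called numbered 8 in *tim_up126*, 6 to 7 in *tim_up122*, 6 to 8 in *tim_up10*, 6 to 7 in *tim_in24*, and 9 to 10 for any strain difference. For rhythms they numbered 0 to 1 in *tim_up126*, 1 to 3 in *tim_up122*, 0 to 2 in *tim_up10*, 0 to 2 in *tim_in24*, 1 to 4 in *yw*, and 4 to 6 in common. For rhythm differences they numbered 0 to 1 among the 5 strains, 0 to 2 for *tim_up126*, and 0 to 2 for *tim_up122*. The log2 fold change ran from -0.11 to 0.11 for *Lsd-1* in *tim_up122* and from -0.0198 to 0.12 for *bmm* in *tim_in24*. *FASN2* passed the test of any strain difference as reported and lost it with DESeq2 (adjusted p = 0.0623) and the replicate block (adjusted p = 0.0545), and in 29 of 47 fits without 1 library (highest adjusted p 0.25). Replicate numbers showed no pairing of libraries between strains: 16 correlations of deviations ran from -0.133 to 0.087. This check takes a replicate number to stand for the same batch in both strains. Batches numbered otherwise would not show in it and were not tested. Over all genes, scaling by library totals called 4153 genes in *tim_up10*, against 2583 as reported. The test of any difference called 743 genes in *yw*, against 1711 for the cosine, and 388 in *tim_up126*, against 651. With no filter, 1619 genes had a rhythm in *tim_up122* (796 as reported) and 981 in *tim_up126*. Rhythm differences with no filter and with DESeq2 numbered 511 and 341 among the 5 strains (132 as reported), 646 and 300 for *tim_up126* (176), and 473 and 438 for *tim_up122* (227).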
